A study of Homo sapiens with 4 samples.

Results

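The genes described here are 31 regulators and executors of apoptosis, namely BCL2 family proteins, inhibitor of apoptosis proteins, factors released from mitochondria, caspases, and death receptors with their adaptors. They were chosen by gene name from a table of 58174 genes, and each name matched 1 row. All 31 are protein-coding in GENCODE release 29, they lie on 15 chromosomes, and all reached 1 FPKM (a fragment number divided by gene length and by the mapped fragments of the library) in at least 1 library. They are therefore among the 15930 genes tested. BCL2 passed this filter through 1 library alone, at 1.14 FPKM.

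The libraries came from 2 human liver cancer cell lines, LM3 from a hepatocellular carcinoma and RBE from an intrahepatic cholangiocarcinoma. Each line was transfected with Lipofectamine 3000, either with siRNA targeting FENDRR, a long noncoding RNA (si-FENDRR), or with the control labelled si-NC, and RNA was taken after 48 h. Both lines were kept in DMEM with fetal bovine serum and antibiotics, and the labels name no other treatment or genetic change. There is 1 library for each line and transfection, 4 in all, and the labels name no separate cultures. Below, paired values are given with si-FENDRR first and si-NC second unless the sentence says otherwise.

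Apoptosis can start inside the cell or at its surface. In the mitochondrial route, BH3-only proteins sense stress and either block the antiapoptotic BCL2 proteins or activate the effectors BAK1 and BAX, which open the outer mitochondrial membrane. Cytochrome c then assembles APAF1 and CASP9 into the apoptosome, while DIABLO and HTRA2 relieve the block that inhibitor of apoptosis proteins place on caspases. In the receptor route, ligand-bound TNF family receptors recruit FADD or TRADD and activate CASP8, and CFLAR holds this step back. Hepatocytes and bile duct cells are known to die by the receptor route in liver injury, with cleaved BID as the link to mitochondria, and MCL1 and BCL2L1 are the antiapoptotic members best known for protecting liver cells.

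FENDRR was listed at 0 in all 4 libraries, so the knockdown could not be checked and libraries are compared by label. The libraries held 13437 to 13682 genes at 1 FPKM or more, and the files carry no read counts, so depth is unknown and no counting interval is given. Of 9 hepatocyte markers, 6 reached 1 FPKM in LM3 and 5 in RBE, with summed levels of 185 and 191 FPKM in LM3 against 25.1 and 27.8 in RBE. ALB was at 35.7 and 33.3 FPKM in LM3 and under 1 FPKM in RBE, while APOA1, another plasma protein of hepatocytes, was near 0 in both lines. TTR went against its list, at 6.39 and 8.41 FPKM in RBE and under 1 FPKM in LM3. Of 8 cholangiocyte markers, 4 reached 1 FPKM in LM3 and 7 in RBE, and their summed levels were 1288 and 1103 FPKM in LM3 against 1608 and 1565 in RBE. EPCAM was at 31.2 and 24.9 FPKM in RBE and at 0.318 and 0.236 in LM3. SPP1 went the other way, with 1118 and 909 FPKM in LM3 against 515 and 504 in RBE, and made up most of the LM3 sums. Other lists had few members at 1 FPKM or more: 1 of 5 immune markers in each line (CD68, also a lysosomal gene of other cells), 1 of 4 endothelial markers in LM3 (PECAM1) and 0 in RBE, and 2 and 3 of 5 fibroblast and stellate markers. Their part in the results was not tested. The pan-leukocyte gene PTPRC was at 0 in LM3 and at most 0.130 FPKM in RBE, CD3E was at 0 in all 4 libraries, and the endothelial gene CDH5 was at most 0.0226 FPKM.

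**Figure D1:**
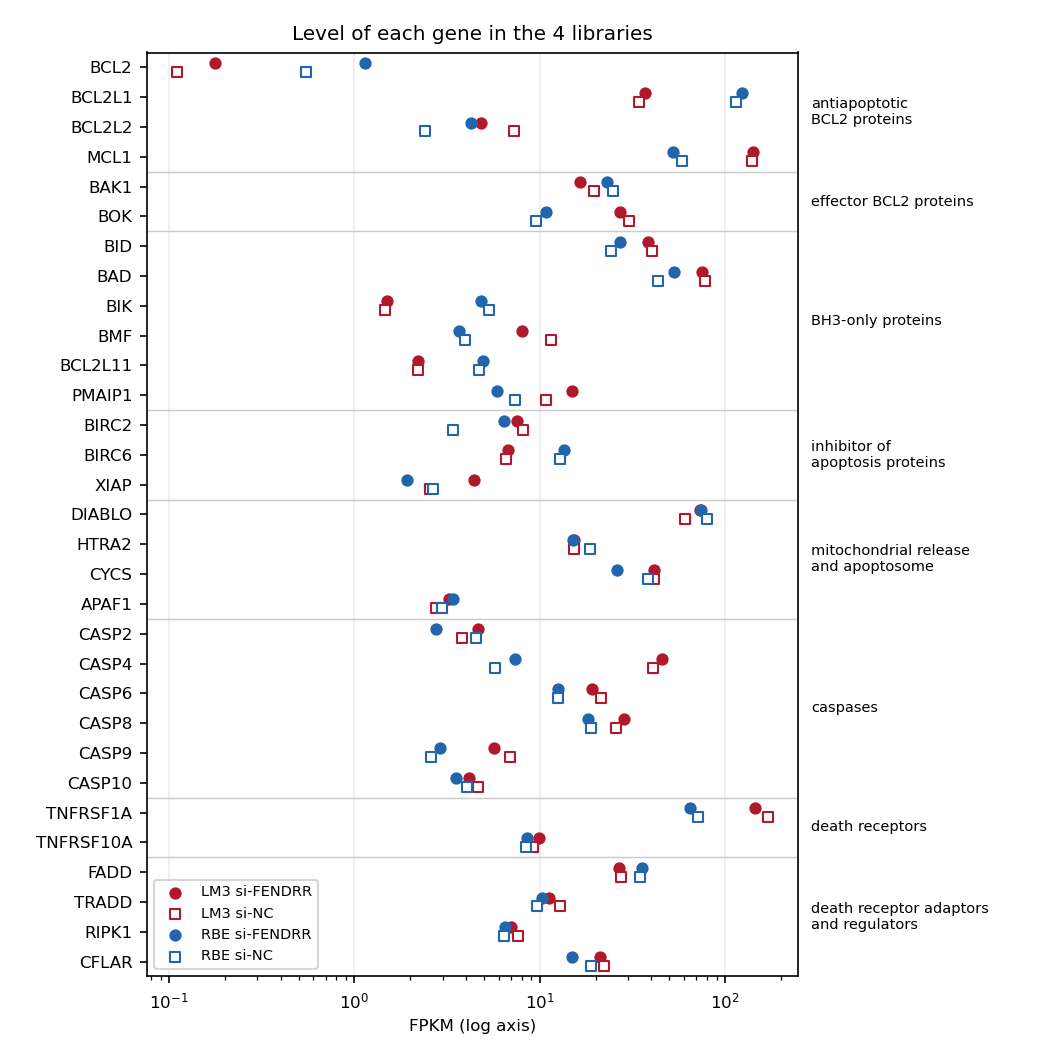
FPKM of the 31 genes (log axis) in the 4 libraries, grouped by role, with LM3 in red, RBE in blue, filled circles for si-FENDRR and open squares for si-NC. The 2 symbols of a line mostly lie side by side, whereas BCL2L1, MCL1, BOK, BIK, CASP4 and TNFRSF1A separate the lines.

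The lines differed in about as many of these genes as they did across the transcriptome. Between LM3 and RBE, 16 of the 31 genes were called by limma at a Benjamini-Hochberg adjusted p of 0.05, which is 51.6%, against 58.7% of all tested genes. Toward LM3 the count was 11 (35.5%, with 32.3% of all tested genes), and toward RBE it was 5 (16.1%, with 26.4%). Of the 30 genes at 1 FPKM or more in a library of each line, all but BCL2, 15 were called, with 53.2% of the 12242 such genes in all. The median difference, as log2(FPKM + 1) of LM3 minus RBE, was 0.36 over the 31 genes and 0.09 over all tested genes. The median size of the difference was 0.62 and 0.65. In 19 of the 31 genes both LM3 libraries lay above both RBE libraries (61.3%, with 44.3% of all tested genes), and in 8 both RBE libraries lay above (25.8%, with 37.4%). Each line was represented by its 2 transfections, which left 1 residual degree of freedom. The p-values set the line difference against how alike it was under si-FENDRR and si-NC, joined with a prior variance that limma draws from all tested genes. That prior had 2.892 degrees of freedom, more than the 1 of the gene itself. In these bulk libraries, more cells that express a gene and more RNA per cell cannot be told apart.

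Transcripts of the antiapoptotic BCL2 genes differed in makeup between the lines. Only RNA was measured, and protein levels were not tested. MCL1, a short-lived member that restrains BAK1, was at 142 and 140 FPKM in LM3, with 52.6 and 58.9 FPKM in RBE. BCL2L1, which encodes BCL-xL, was at 36.8 and 34.2 FPKM in the LM3 libraries and 123 and 114 in those of RBE. For each of these genes the libraries of one line lay entirely above those of the other, MCL1 higher in LM3 and BCL2L1 higher in RBE. The log2 difference of LM3 minus RBE was 1.32 ± 0.11 (SE, n = 2 libraries per line) for MCL1, with an adjusted p of 0.0029 by limma. For BCL2L1 it was -1.71 ± 0.10 (SE), with an adjusted p of 0.0017 by limma. The antisense gene ABALON covers 43.0% of the exon bases of BCL2L1 and was itself at 1.09 and 1.248 FPKM in LM3, with 4.74 and 8.67 in RBE. BCL2L1 ranked 8th of the 31 genes in LM3 and 1st in RBE by mean FPKM.

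BCL2 and BCL2L2, the other antiapoptotic genes of the set, were weak. BCL2, the founding member of the family, was at FPKM values of 0.177 and 0.110 in LM3, and of 1.14 and 0.548 in RBE, the lowest mean of the 31 genes in each line. Its difference of -0.67 ± 0.18 (SE) gave an adjusted p of 0.0398 by limma, but BCL2 was tested only because 1 library of RBE, the line where it is higher, reached 1 FPKM. The call ended with a pseudocount of 5 (difference -0.18, adjusted p = 0.0559) and with no filter on low values (adjusted p = 0.0642), with a range of 0.0187 to 0.0642 over 6 alternatives. BCL2L2, which encodes BCL-w, was at 4.81 and 7.26 FPKM in LM3, with 4.28 and 2.41 FPKM in RBE and was not called (adjusted p = 0.125). It shares exon bases with the readthrough model BCL2L2-PABPN1, listed at 2.82 and 3.06 FPKM in the LM3 libraries and 0.433 and 2.25 in those of RBE, so reads may have been split between them.

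Summed over these 4 antiapoptotic genes, FPKM was nearly the same in every library, at 184 and 181 in LM3 and 181 and 176 in RBE. What differed was the makeup of that sum. MCL1 made up 77.3% and 77.0% of it in LM3 and 29.1% and 33.4% in RBE. BCL2L1 made up most of the remainder in LM3, with 18.9% in the si-NC library, and 67.9% and 64.9% of the sum in RBE. The ratio of MCL1 to BCL2L1 within a library, which no scaling between libraries can change, was 3.86 and 4.08 in LM3 and 0.428 and 0.515 in RBE. This sum and ratio were chosen after the values were seen, and with 2 libraries against 2 an exact two-sided permutation test could give no p below 0.333, so they are a description.

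**Figure D2:**
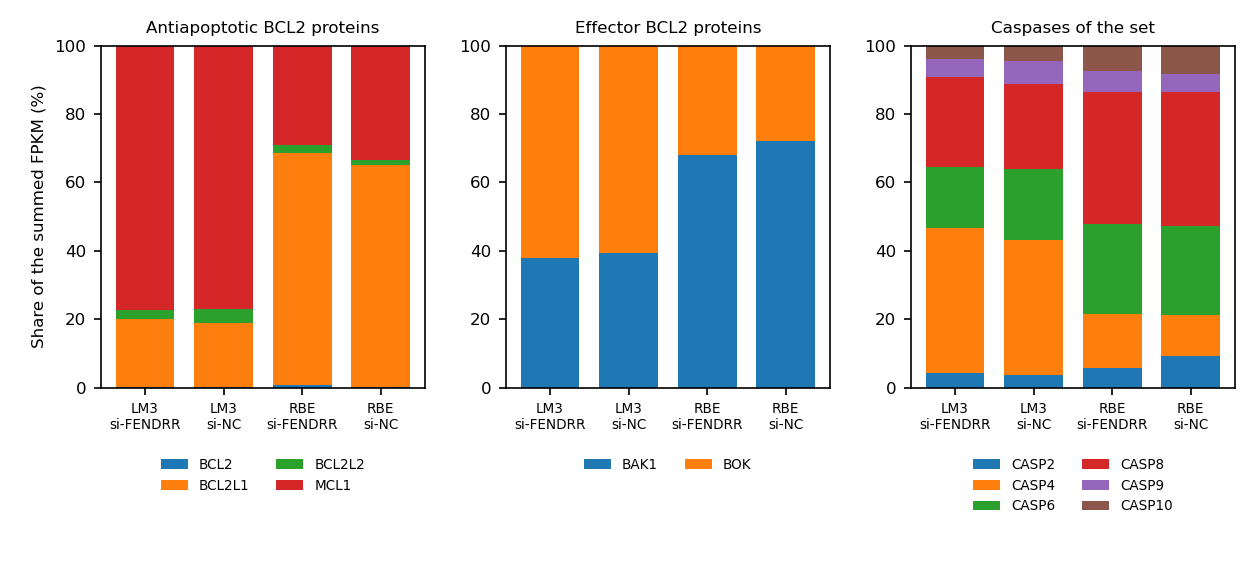
Share of the summed FPKM (%) within each library for the antiapoptotic BCL2 proteins, the effector BCL2 proteins and the caspases of the set, with 1 bar per library. MCL1 makes up 77.3% and 77.0% of the first sum in LM3 and 29.1% and 33.4% in RBE, and CASP4 makes up 42.2% and 39.6% of the third in LM3 and 15.6% and 11.8% in RBE.

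Of the 2 effector genes, BOK was called between the lines and BAK1 was not. BOK, an effector-like protein kept low by degradation through the endoplasmic reticulum, was at FPKM values of 27.0 and 30.1 in LM3, and of 10.8 and 9.60 in RBE. Both LM3 libraries lay above both RBE libraries, with a difference of 1.40 ± 0.14 (SE, n = 2 libraries per line) and an adjusted p of 0.0038 by limma. BAK1, the membrane-resident effector that MCL1 and BCL2L1 hold in check, was at 16.4 and 19.5 FPKM in LM3, with 23.0 and 24.7 FPKM in RBE. Its difference of -0.39 ± 0.12 (SE) missed the threshold (adjusted p = 0.0501 by limma) and passed it under 3 of 7 alternatives (range 0.0295 to 0.0790). BAX, the other main effector, is not one of the 31 genes and was named after its values were seen. It was at 133 and 134 FPKM in the LM3 libraries and 136 and 138 in those of RBE, with an adjusted p of 0.763 by limma.

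All 6 BH3-only genes were called between the lines, 4 toward LM3 and 2 toward RBE, where 58.7% of all tested genes were called, 32.3% toward LM3 and 26.4% toward RBE. BAD, which binds BCL2L1 and BCL2 when unphosphorylated, was the most abundant of them, at FPKM values of 74.6 and 77.6 in LM3, and of 52.7 and 43.6 in RBE. BID, the link from CASP8 to mitochondria, was next, at 38.3 and 40.2 FPKM in LM3, with 26.9 and 24.3 FPKM in RBE. These genes together made up most of the BH3-only sum in every library, and the ratio of BAD to BID stayed between 1.79 and 1.96. BMF, which is held at the cytoskeleton in healthy cells, was at 8.01 and 11.5 FPKM in the LM3 libraries and 3.65 and 3.94 in those of RBE (1.15 ± 0.16 SE, adjusted p = 0.0075 by limma). PMAIP1, or NOXA, a p53-inducible antagonist of MCL1, was at FPKM values of 14.8 and 10.8 in LM3, and of 5.85 and 7.33 in RBE. Its difference of 0.86 was called (adjusted p = 0.0329 by limma) but was 1.21 between the si-FENDRR libraries and 0.50 between the si-NC libraries. The call of PMAIP1 ended with no filter on low values (adjusted p = 0.0782, range over 7 alternatives 0.0203 to 0.0782).

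In the other direction, BIK, a BH3-only protein that sits at the endoplasmic reticulum, was at 1.5 and 1.47 FPKM in LM3, with 4.83 and 5.34 FPKM in RBE. Its difference was -1.29 ± 0.13 (SE, n = 2 libraries per line), with an adjusted p of 0.0042 by limma. BCL2L11, which encodes BIM and binds every antiapoptotic member, was at 2.20 and 2.21 FPKM in the LM3 libraries and 4.97 and 4.67 in those of RBE (-0.86 ± 0.13 SE, adjusted p = 0.0094 by limma). Its exons overlap those of MIR4435-2HG on the opposite strand, a noncoding gene listed at FPKM values of 78.1 and 67.8 in LM3, and of 127 and 124 in RBE. No source used here states whether the counting used strand, so reads of BCL2L11 and MIR4435-2HG cannot be told apart with certainty. The same holds for BAD with GPR137, which overlaps 23.7% of its exon bases, and to a lesser extent for CASP6 with MCUB, and for FADD and PYCARD with weakly expressed antisense genes. For the weakly expressed BH3-only genes the size depends on the pseudocount. With a pseudocount of 5 the difference was -0.64 for BIK, -0.45 for BCL2L11 and 0.74 for BMF, each still called.

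Among the inhibitor of apoptosis proteins, 1 of 3 was called, toward RBE (58.7% of all tested genes were called, 26.4% toward RBE). BIRC6, a giant ubiquitin ligase that marks caspases and DIABLO for removal, was at 6.72 and 6.56 FPKM in LM3, with 13.5 and 12.9 FPKM in RBE (-0.90 ± 0.12 SE, n = 2 libraries per line, adjusted p = 0.0069 by limma). XIAP, the direct caspase inhibitor, was at 4.40 and 2.54 FPKM in the LM3 libraries and 1.93 and 2.66 in those of RBE, and the libraries of the lines overlapped. BIRC2, a ubiquitin ligase of TNF receptor complexes, was at FPKM values of 7.50 and 8.10 in LM3, and of 6.44 and 3.40 in RBE and was not called (adjusted p = 0.101 by limma). Its neighbour BIRC3 on chromosome 11, 7807 bases away and not among the 31 genes, was at 7.92 and 4.81 FPKM in LM3, with 1.47 and 1.56 FPKM in RBE and was called (adjusted p = 0.0080 by limma). It is named here for its position, after its values were seen.

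None of the 4 genes of mitochondrial release and the apoptosome was called between the lines, where 58.7% of all tested genes were. The libraries did not overlap for CYCS, higher in LM3, and DIABLO, higher in RBE. DIABLO, which displaces inhibitor of apoptosis proteins from caspases, was at 72.9 and 60.5 FPKM in the LM3 libraries and 74.2 and 80.2 in those of RBE. CYCS, cytochrome c, was at FPKM values of 41.1 and 41.4 in LM3, and of 26.0 and 38.5 in RBE. The table also lists 40 genes named as CYCS pseudogenes, which together came to between 1.04 and 3.97 FPKM per library, so some CYCS reads may have been assigned to them. HTRA2, a serine protease of the intermembrane space, was at 15.3 FPKM in both LM3 libraries and at 15.1 and 18.6 in RBE. Its exons overlap the abundant AUP1 on the opposite strand, at 119 to 123 FPKM. APAF1, the scaffold of the apoptosome, was low in all libraries, at 3.23 and 2.74 FPKM in LM3, with 3.39 and 2.96 FPKM in RBE. The SE of these 4 differences was at most 0.17 on the log2 scale.

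Caspases gave the largest single difference. CASP4, an inflammatory caspase that binds bacterial lipopolysaccharide in the cytosol, was at 45.4 and 41.0 FPKM in the LM3 libraries and 7.35 and 5.74 in those of RBE. Its difference was 2.56 ± 0.12 (SE, n = 2 libraries per line), a 5.88-fold difference of FPKM + 1, with an adjusted p of 0.0012 by limma. By mean FPKM it ranked 5th of the 31 genes in LM3 and 19th in RBE. CASP9, the initiator of the apoptosome, was at FPKM values of 5.69 and 6.94 in LM3, and of 2.89 and 2.58 in RBE (0.96 ± 0.16 SE, adjusted p = 0.0111 by limma, and 0.55 with a pseudocount of 5).

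The remaining caspases differed less. CASP6, an executioner, was at 19.2 and 21.4 FPKM in LM3, with 12.5 and 12.6 FPKM in RBE and was called toward LM3 (adjusted p = 0.0149 by limma). CASP8, the initiator at death receptors, was at 28.3 and 25.7 FPKM in the LM3 libraries and 18.2 and 19.0 in those of RBE and was called (adjusted p = 0.0287), a call that ended with no filter on low values (adjusted p = 0.0525, range over 7 alternatives 0.0134 to 0.0525). CASP2, an initiator linked to DNA damage and chromosome number, was at FPKM values of 4.66 and 3.79 in LM3, and of 2.76 and 4.52 in RBE, with overlapping libraries. CASP10, a relative of CASP8, was at 4.18 and 4.66 FPKM in LM3, with 3.52 and 4.07 FPKM in RBE and was not called. CASP8 and CASP10 stand beside their inhibitor CFLAR on chromosome 2, from 201116104 to 201287711, with gaps of 6193 and 4036 bases. These 3 neighbours had line differences of 0.36 for CFLAR, 0.18 for CASP10 and 0.51 for CASP8. That of CFLAR was 0.48 between the si-FENDRR libraries and 0.23 between the si-NC libraries.

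At the cell surface, TNFRSF1A, the main TNF receptor, was the most abundant of the 31 genes in LM3, at 145 and 171 FPKM, and was at 64.3 and 71.7 FPKM in RBE. The difference was 1.20 ± 0.10 (SE, n = 2 libraries per line), with an adjusted p of 0.0030 by limma. TNFRSF10A, a receptor for TRAIL, was at 9.89 and 9.15 FPKM in the LM3 libraries and 8.56 and 8.38 in those of RBE and was not called (adjusted p = 0.331). None of the 4 receptor adaptors and regulators was called (58.7% of all tested genes were), although the libraries of the lines did not overlap in any of them, with FADD higher in RBE and TRADD, RIPK1 and CFLAR higher in LM3. FADD, the adaptor that brings CASP8 to receptors, was at FPKM values of 26.8 and 27.5 in LM3, and of 35.8 and 34.7 in RBE, just short of the threshold (adjusted p = 0.0535 by limma). It passed under 3 of 7 alternatives (range 0.0248 to 0.0874). TRADD, the adaptor of TNFRSF1A, was at 11.2 and 12.9 FPKM in LM3, with 10.3 and 9.67 FPKM in RBE. RIPK1, the kinase that directs signalling toward survival or necroptosis, was at 6.96 and 7.61 FPKM in the LM3 libraries and 6.51 and 6.45 in those of RBE. CFLAR was at FPKM values of 21.2 and 22.3 in LM3, and of 14.9 and 18.9 in RBE.

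**Figure D3:**
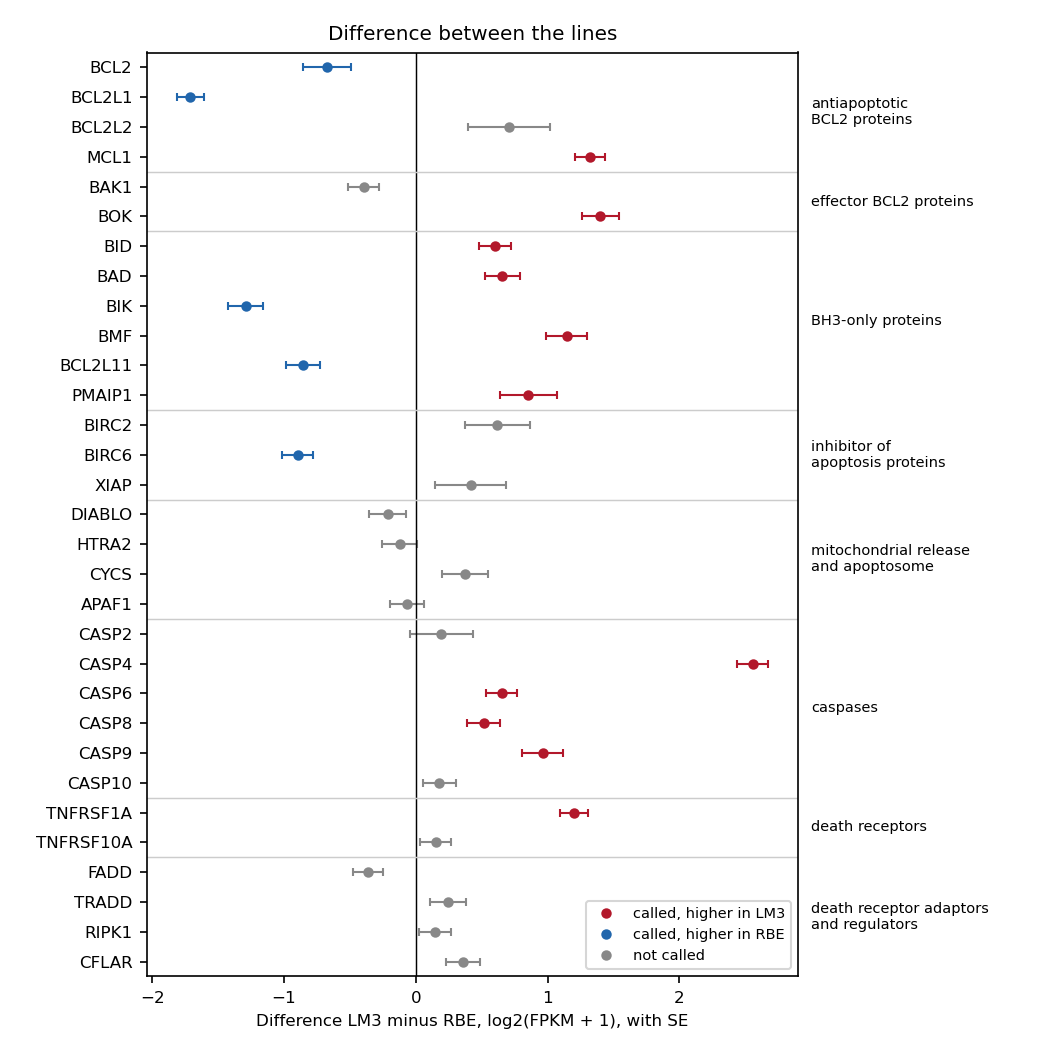
Difference LM3 minus RBE in log2(FPKM + 1) for the 31 genes, with the standard error of limma as bars, in red where called toward LM3, in blue where called toward RBE and in grey where not called. CASP4 stands farthest toward LM3 at 2.56 and BCL2L1 farthest toward RBE at -1.71, and the 4 genes of mitochondrial release and the apoptosome, none of them called, lie between -0.21 and 0.37.

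The promoters of the genes with the largest differences that had an entry in the sequence table are printed here, 2 toward LM3 (CASP4 and BOK) and 2 toward RBE (BCL2L1 and BIRC6), to show how unlike these start regions are. Each is the RefSeq window on GRCh38.p14 of 250 bases before to 50 bases after the most upstream listed start. The strand is minus for CASP4 and BCL2L1 and plus for BOK and BIRC6. They lie at chr11:104968525-104968824, chr2:241558495-241558794, chr20:31723914-31724213 and chr2:32356773-32357072, in the order printed. Capitals mark matches, on either strand, to the SP1 box GGGCGG, the box CCAAT, the TATA box TATAAA or the consensus site of NF-kB.
CASP4: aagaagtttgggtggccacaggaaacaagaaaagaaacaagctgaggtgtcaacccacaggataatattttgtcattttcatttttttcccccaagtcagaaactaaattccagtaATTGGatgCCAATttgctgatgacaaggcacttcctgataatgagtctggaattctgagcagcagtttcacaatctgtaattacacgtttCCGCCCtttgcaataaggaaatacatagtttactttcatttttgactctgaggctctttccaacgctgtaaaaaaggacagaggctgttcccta
BOK: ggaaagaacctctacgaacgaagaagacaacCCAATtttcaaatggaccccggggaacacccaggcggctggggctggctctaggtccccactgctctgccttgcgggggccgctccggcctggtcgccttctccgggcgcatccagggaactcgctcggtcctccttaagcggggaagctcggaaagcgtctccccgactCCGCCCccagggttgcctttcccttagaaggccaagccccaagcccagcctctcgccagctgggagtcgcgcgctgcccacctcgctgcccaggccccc
BCL2L1: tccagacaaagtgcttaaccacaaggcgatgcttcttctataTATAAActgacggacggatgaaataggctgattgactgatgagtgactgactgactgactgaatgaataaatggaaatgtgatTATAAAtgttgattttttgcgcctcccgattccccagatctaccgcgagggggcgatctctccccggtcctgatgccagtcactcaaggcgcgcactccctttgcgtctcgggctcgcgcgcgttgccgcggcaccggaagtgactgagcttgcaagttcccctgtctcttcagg
BIRC6: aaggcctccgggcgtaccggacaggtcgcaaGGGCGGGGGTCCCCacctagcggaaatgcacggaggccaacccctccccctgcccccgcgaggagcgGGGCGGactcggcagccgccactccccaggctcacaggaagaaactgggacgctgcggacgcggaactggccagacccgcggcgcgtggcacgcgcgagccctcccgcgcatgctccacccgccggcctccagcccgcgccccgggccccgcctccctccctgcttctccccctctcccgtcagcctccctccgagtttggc
The CASP4 window is the poorest in G and C of the 25 matched genes, at 39.7% with 3 CpG sites, and holds 2 CCAAT matches and 1 SP1 box. It lies wholly inside the CASP4 gene as deposited, whose upstream end is at 104969436, so it does not span that end. BCL2L1 holds TATAAA at 2 places and is at 52.0% G and C with 20 CpG sites. BOK is at 66.7% with 22 CpG sites and BIRC6 at 75.0% with 34, and in BIRC6 the NF-kB match overlaps an SP1 box.

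Of the 31 genes, 25 had an entry; the others are BCL2L2, MCL1, BIK, CASP10, TNFRSF10A and TRADD. The median content of G and C was 66.7% in the 25 windows and 58.3% in 27305 windows of all genes, with medians of 28 and 13 CpG sites. The SP1 box GGGCGG was in 19 of the 25 windows (76.0%, with 44.5% of all windows) and CCAAT in 13 (52.0%, with 35.7%). TATAAA was in 2, those of BCL2L1 and RIPK1 (8.0%, with 12.02%). The NF-kB consensus was in 3, those of BMF, BIRC6 and CFLAR (with 5.72% of all windows), and the interferon response motif in 1, that of CASP8 (4.0%, with 3.66%). All were searched on both strands. These are letter matches in 1 window per gene and describe the sequence only. The windows of BCL2, BCL2L11, CASP9 and CFLAR, like that of CASP4, lie wholly inside the gene as deposited and do not span its upstream end. Of the 3 genes with the NF-kB consensus, BMF was called toward LM3, BIRC6 toward RBE and CFLAR in neither direction.

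Between the transfections, none of the 31 genes was called over both lines by limma, and 0 of all tested genes (0.0%) were called. At an unadjusted p under 0.05 the count was 0 of 31, with 4.12% of all tested genes. The smallest unadjusted p among the 31 was 0.132, and adjusted p-values ran from 0.959 to 0.999. The median log2 difference of si-FENDRR minus si-NC was -0.01 in LM3 and 0.01 in RBE over these genes, against 0.00 and 0.02 over all tested genes. The lines were the only replicates (n = 2), and a p above the threshold does not show that the transfections gave equal levels.

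Within a line there is no replicate and no test. In neither line did any of the 31 genes reach a 2-fold difference of FPKM + 1 between the transfections, where 2.13% of all tested genes did in LM3 and 1.75% in RBE. The differences ran from -0.51 to 0.61 on the log2 scale in LM3 and from -0.55 to 0.76 in RBE. In LM3 the extremes were BCL2L2, at 4.81 FPKM with si-FENDRR and 7.26 with si-NC, and XIAP, at 4.40 and 2.54. In RBE they were CASP2, at 2.76 and 4.52 FPKM, and BIRC2, at 6.44 and 3.40. At 1.5-fold, XIAP alone passed in LM3 (7.97% of all tested genes did), and BCL2L2 and BIRC2 passed in RBE (6.27%).

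**Figure D4:**
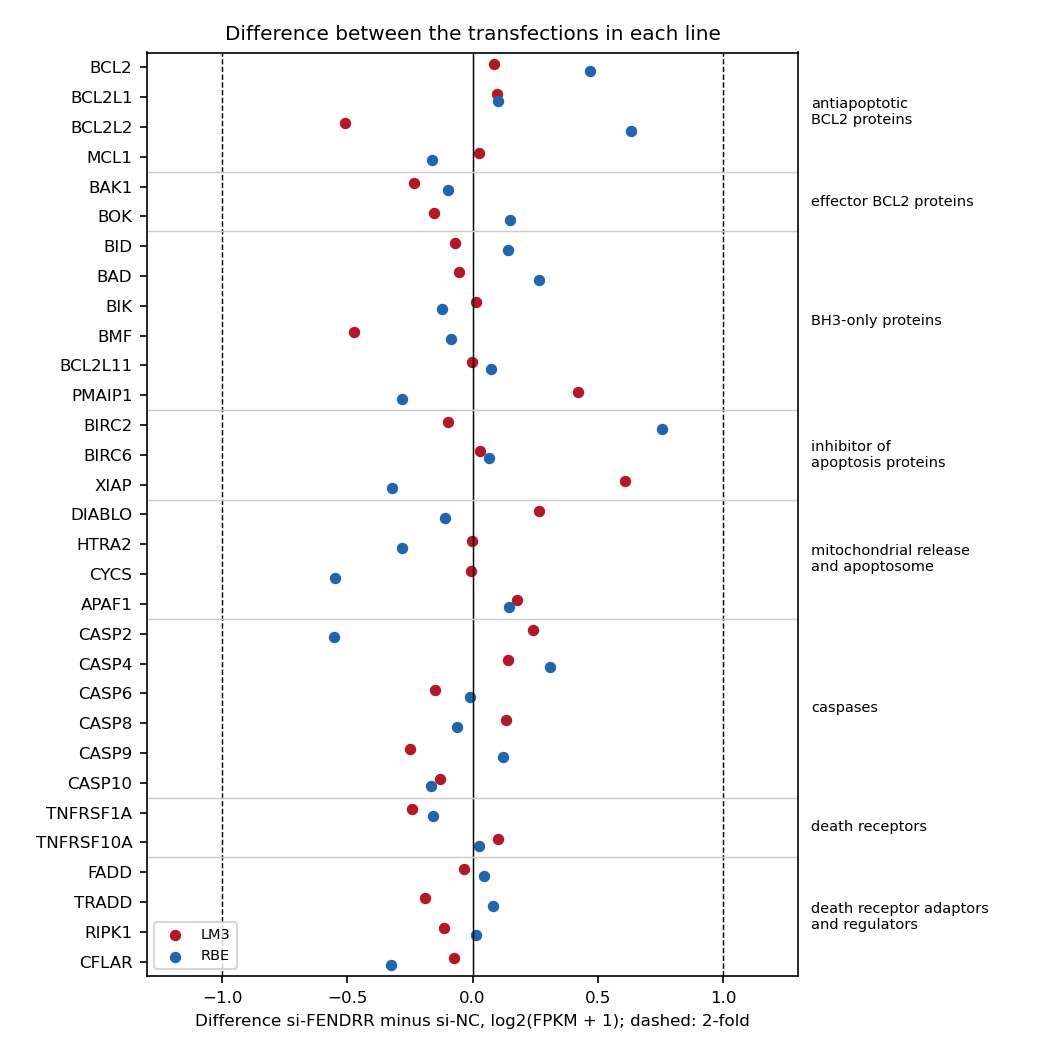
Difference si-FENDRR minus si-NC in log2(FPKM + 1) for the 31 genes, in red for LM3 and in blue for RBE, with dashed lines at 2-fold. Every point lies between the dashed lines, and for 17 of the 31 genes the lines lie on opposite sides of 0.

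Averaged over both lines, the largest differences were small and often came from 1 line. Toward si-FENDRR these were BIRC2 (0.33 ± 0.25 SE, n = 2 lines, adjusted p = 0.959 by limma), BCL2 (0.28 ± 0.18 SE) and CASP4 (0.23 ± 0.12 SE). CASP4 went the same way in each line, with 41.0 FPKM under si-NC and 45.4 under si-FENDRR in LM3, and 5.74 and 7.35 FPKM in RBE. The difference of BIRC2 was -0.10 in LM3 and 0.76 in RBE, and that of BCL2 was 0.08 and 0.47. For any gene, leaving out a library returns the difference of the other line, so it adds nothing to these values. Toward si-NC these were BMF (-0.28 ± 0.16 SE), CYCS (-0.28 ± 0.17 SE) and CFLAR (-0.20 ± 0.13 SE), each with an adjusted p of 0.959 by limma. BMF differed mostly in LM3, at 8.01 against 11.5 FPKM, and CYCS in RBE, at 26.0 against 38.5. The difference of CFLAR was -0.07 in LM3 and -0.32 in RBE. None passed the threshold.

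In direction, si-FENDRR libraries were the higher ones in each line for 6 of the 31 genes (19.4%, with 26.9% of all tested genes), namely BCL2, BCL2L1, BIRC6, APAF1, CASP4 and TNFRSF10A. Lower in both were 8 (25.8%, with 21.8%), namely BAK1, BMF, HTRA2, CYCS, CASP6, CASP10, TNFRSF1A and CFLAR. The lines went opposite ways in 17 genes (54.8%, with 47.1%). In 2 of these, BCL2L2 and XIAP, the difference was at least 25% of FPKM + 1 in each line (6.45%, with 3.22%). The antiapoptotic sum barely moved with the transfection, as given above, and the ratio of CASP8 to CFLAR was 1.34 and 1.15 in LM3 and 1.22 and 1.01 in RBE.

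Of 41 other genes of these pathways, 30 reached 1 FPKM in some library, and 18 of them were called between the lines (60.0%, with 58.7% of all tested genes). The calls were 11 toward LM3 (36.7%, with 32.3% of all tested genes) and 7 toward RBE (23.3%, with 26.4%). Among these, BIRC7, TNFRSF1B, CASP1 and FAS reached 1 FPKM only in the line where they are higher. Without genes of this kind 14 of 26 were called (53.8%, with 53.2% of all such genes). Toward LM3 the largest differences were in BIRC7, an inhibitor of apoptosis protein known from melanoma, at 13.4 and 18.5 FPKM against 0.161 and a listed 0 in RBE. TNFRSF1B, the second TNF receptor, was at 5.46 and 5.86 FPKM against 0.0713 and 0.0334. PYCARD, the inflammasome adaptor, was at 81.0 and 91.7 FPKM against 14.5 and 13.0. CASP1, the inflammasome caspase, lies beside CASP4 on chromosome 11 with the silent CASP5 between them and was named for that position after its values were seen. It was at 3.68 and 2.54 FPKM in LM3 against 0.0597 and 0.0460 in RBE, and CASP5 was listed at 0 in all 4 libraries.

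Toward RBE, the death receptor gene FAS was at 11.3 and 21.1 FPKM against 0.244 and 0.200 in LM3 (-3.75 ± 0.26 SE, n = 2 libraries per line, adjusted p = 0.0020 by limma). Its exons overlap those of ACTA2 on the opposite strand, at 108 and 111 FPKM in RBE and at most 0.362 in LM3. The TRAIL decoy receptor gene TNFRSF10D was at 21.7 and 24.3 FPKM in RBE against 5.72 and 6.10 in LM3, and the TRAIL receptor gene TNFRSF10B at 77.1 and 72.6 against 32.8 and 38.1. All of these were called by limma, but FAS was tested only because libraries of RBE, the line where it is higher, reached 1 FPKM. TNFRSF1B likewise reached 1 FPKM only in LM3. Among receptor genes at 1 FPKM or more in a library of each line, TNFRSF1A was called toward LM3. TNFRSF10B, TNFRSF10D and TNFRSF21 were called toward RBE, and TNFRSF10A, TNFRSF10C and TNFRSF25 were not called. TNFRSF21, TNFRSF10C and TNFRSF25 were named after their values were seen. Between the transfections none of the 30 was called by limma, with 0 at an unadjusted p under 0.05 and 0 at 2-fold in either line. Among those with the larger differences, BIRC3 was at 4.81 FPKM under si-NC and 7.92 under si-FENDRR in LM3 and at 1.56 and 1.47 in RBE. Toward si-NC the largest differences were in FAS, at 11.3 against 21.1 FPKM in RBE, and in AIFM1, a mitochondrial flavoprotein, at 35.4 FPKM under si-NC and 24.9 under si-FENDRR in RBE, and 45.9 and 40.5 in LM3.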

How the data were processed

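Deposited expression tables give FPKM per gene, per the file headers, that is fragments normalised by length and library. Reads were aligned with HISAT2 to hg38 after FastQC, per the submitters' processing notes; the sources used here state no versions, FPKM program, annotation or strand setting. The single-library files hold the values of the matrix. In single-exon genes only 7.68% to 11.6% of low values came within 0.02 of whole multiples of 1 step, so reads were not recovered and depth is unknown.

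All tests used limma version 3.58.1 in R version 4.3.3 on log2(FPKM + 1), with terms for cell line and transfection and the prior variance following mean level. The 15930 genes that reached 1 FPKM in some library were tested. 1 residual degree of freedom was left, and Benjamini-Hochberg adjustment ran over all tested genes at 0.05. Samples of a line are its only repeats, and they differ in transfection. For the lines, p-values set the difference against how alike it was under si-FENDRR and si-NC. For the transfections, they set the difference against how alike it was in LM3 and RBE. In both, limma joined this spread with a prior variance from all tested genes, with 2.892 prior degrees of freedom. On simulated data with few changed genes, the test missed 2-fold differences between the transfections and between the lines, and found most 4-fold ones. With many changed genes it found most 2-fold differences between the lines. An uncalled gene may therefore still differ. FPKM scales with gene length, so levels are compared between genes on that scale only.

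Gene coordinates are those of the deposited table, on hg38. They equal GENCODE release 29 at both ends for 29 of the 31 genes. Exons of 12 of the 31 share bases with a gene at 1 FPKM or more, in 2 on the same strand and in 11 on the opposite strand. The members and lists were chosen with earlier results of these data known. All members are described. By rule, limma values are given for the 6 largest differences toward each line and the 3 toward each transfection, and other pathway genes are named for the 3 and 2 largest, of which 1 result is not reported here. Alternatives covered scaling, pseudocount, filter, the second model term and each library left out, and a 1.5-fold rule within lines. Restriction to genes without overlap was chosen after seeing the data.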

Additional observations from a re-analysis of the deposited data

Results flagged for a closer look

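Results were listed for a closer look where the transfection difference went opposite ways in the lines by at least 25% of FPKM + 1 in each. Of the 31 genes, 2 met this (6.45%, with 3.22% of all tested genes). BCL2L2 had a log2 difference of si-FENDRR minus si-NC of -0.51 in LM3 and 0.63 in RBE, and its readthrough model BCL2L2-PABPN1 went from 3.06 FPKM with si-NC to 2.82 with si-FENDRR in LM3 and from 2.25 to 0.433 in RBE. XIAP had 0.61 in LM3 and -0.32 in RBE, the latter just at the limit, and shares exons with no expressed gene. With 1 library per line and transfection, the difference between the lines was not tested for either gene. Over the alternatives BCL2L2 ran from -0.58 to -0.32 in LM3 and from 0.33 to 0.80 in RBE, and XIAP from 0.32 to 0.77 in LM3 and from -0.44 to -0.14 in RBE. The other 15 genes with opposite directions had a smaller difference in at least 1 line.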

How the results depend on the processing

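Over 7 alternatives of scaling, pseudocount, filter and model terms, between 13 and 18 of the 31 genes were called between the lines, 9 to 11 toward LM3 and 4 to 7 toward RBE. Of all tested genes, 11451 to 34399 by setting, 3481 to 5250 were called toward LM3 and 2728 to 4720 toward RBE. The share called over all tested genes was 24.3% with no filter on low values, 54.2% with 1 FPKM required in every library, where 30 of the 31 genes were tested, and 57.7% to 60.5% in the others. No difference between the lines changed sign under these. Of the 16 called genes, 13 remained called under all 7, and the exceptions were BCL2, PMAIP1 and CASP8. The share that remained called was not computed over all genes. BAK1 and FADD were called toward RBE as well with median-of-ratios scaling, with a pseudocount of 5 and without the replicate block. The labels give no replicate numbers, and the block here is the transfection for the line comparison and the line for the transfection comparison. Without the replicate block 18 genes were called between the lines and 0 between the transfections. Among the 19 genes that share no exon with an expressed gene, 11 were called, 8 toward LM3 and 3 toward RBE, and no such share was computed over all genes. With a pseudocount of 0.1 the difference of BCL2 was -1.90. Leaving out 1 library leaves no residual degree of freedom, so only values were computed: the sign of the line difference changed in 1 to 2 uncalled genes per library left out (XIAP, HTRA2 or CASP2), and that of the transfection difference in 8 to 9.

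Between the transfections 0 of the 31 genes were called under every alternative, with a smallest adjusted p of 0.930. The sign of that difference changed for FADD with median-of-ratios scaling and for BOK with a pseudocount of 0.1. Within lines, the count was 0 under each scaling and pseudocount, and with the 1.5-fold rule it was 1 in LM3 and 2 in RBE. Depth is unknown, and 1 library per line and transfection limits all statements.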
